A study of Mus musculus with 4 samples.

Results

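The oligoadenylate synthetase (OAS) family of the mouse was followed through RNA-seq of isolated Langerhans cells of the ear, which are epidermal dendritic cells. Its members were 8 genes chosen by name, Oas1a, Oas1b, Oas1c, Oas1g, Oas2, Oas3, Oasl1 and Oasl2, and each was found as 1 of the 55487 genes of the count table. The mice were wild type. Ears had been treated with Vaseline (2 libraries) or with imiquimod (2 libraries), an agonist of Toll-like receptor 7 whose use on skin gives a psoriasis-like inflammation. Strain, age, dose and length of treatment are not given in the sources used here. Whether the libraries of a treatment derive from separate animals is not given in the labels. The p-values therefore measure the spread between these samples, and part of it may be technical. The descriptions of the samples give the Vaseline libraries a common letter code and each imiquimod library its own, with no meaning stated. If these codes mark batches, batch and treatment cannot be told apart.

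OAS enzymes bind double-stranded RNA and then join ATP into 2′-5′-linked oligoadenylates, a second messenger (2-5A) of antiviral defence. Their genes are textbook targets of type I interferon, whose receptor signals to interferon-stimulated response elements (ISREs) in promoters. Oasl1 and Oasl2 encode OAS-like proteins, which carry ubiquitin-like domains. Oasl1 lacks synthetase activity and is known to restrain translation of Irf7, the transcription factor that amplifies interferon production, whereas mouse Oasl2 has kept synthetase activity.

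The libraries differed in depth and in background. The Vaseline libraries 1 and 2 held 41998172 and 76028955 counts, and the imiquimod libraries 1 and 2 held 14902782 and 20690182. The median level of 1768 olfactory and vomeronasal receptor genes, which serves as a background of scattered reads, was 0.396 and 0.153 CPM (counts scaled to the library's effective total) per exonic kilobase with Vaseline and 0.501 and 0.758 with imiquimod. CPM are scaled by the TMM method unless stated otherwise. Of 12 Langerhans cell markers all 12 were at lower CPM in both imiquimod libraries than in both Vaseline libraries. The same held for 20.9% of all tested genes and for 50.3% of the genes above background defined below. Cd207, which encodes langerin, stood at 2255 and 6883 CPM with Vaseline and at 1201 and 575 CPM with imiquimod, so the labelled cell type was represented in all 4 libraries. In these bulk samples fewer cells of a type and less RNA per cell cannot be told apart. Because background differed, each comparison was fitted on all 39439 genes that passed the count filter and again on 14602 genes above background, whose level averaged at least 5 times that of the receptor genes. The background was lowest in Vaseline 2, so that library weighs most in that average and genes high there could enter through it. The median log2 fold change (imiquimod over Vaseline) was 0.41 over all tested genes and 0.08 over genes above background in their own fit.

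Of the family, Oasl2 was the member whose level differed most between treatments. Oasl2 was at 8.36 and 8.43 CPM in the Vaseline libraries and at 39.4 and 31.6 CPM in the imiquimod libraries, or 8.40 ± 0.0499 and 35.5 ± 5.46 (mean ± SD, n = 2 each). Both imiquimod libraries lay above both Vaseline libraries. The log2 fold change was 2.08 (SE 0.62), with an adjusted p of 0.123 in the edgeR quasi-likelihood test over all genes, which does not pass the threshold of 0.05. With edgeR 0 of the 8 members passed in either direction, against a background of 0.0634% of all tested genes higher and 0.137% lower. Without adjustment, 1 member (Oasl2) was higher at p under 0.05 and 0 were lower, near the 8.63% higher and 5.10% lower of all tested genes. Of the genes above background, which include 7 of the members, 1.01% were higher and 13.3% lower in this same fit.

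The call for Oasl2 turned on the test and the scaling. It passed with DESeq2 (log2 fold change 1.83, adjusted p = 0.0447), where 0.0152% of all genes were called higher and 1.69% lower, and with limma-voom (2.08, adjusted p = 0.0439), where 0.104% were called higher and 0.345% lower. With edgeR it passed under upper-quartile factors (2.41, adjusted p = 0.0113), library totals (2.88, adjusted p = 0.0483) and a stricter filter (2.25, adjusted p = 0.0190). The corresponding shares of genes called higher were 0.104%, 0.0203% and 0.0946%, and those of genes called lower 0.142%, 0.0127% and 0.434%. The smallest two-sided p that an exact permutation test of 2 against 2 libraries allows is 0.333, so every such call rests on a spread estimated over many genes.

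Among genes above background the difference in Oasl2 was larger. The log2 fold change there was 2.83 (SE 0.35, edgeR adjusted p = 0.215), the value of rank 2 by p among 14602 genes, and 0.473% of these genes had a larger fold change. In that set edgeR called 0 genes in either direction, and an unadjusted p under 0.05 was reached by 798 in the higher and 699 in the lower direction. DESeq2 called Oasl2 there (2.79, adjusted p = 9.68e-09), beside 0.664% of genes called higher and 1.07% called lower. Over 20 combinations of test, scaling, filter and left-out library the log2 fold change of Oasl2 lay between 1.83 and 3.09, was positive in all 20 and passed in 7. The seventh pass came with imiquimod 2 left out among genes above background (edgeR, 2.61, adjusted p = 0.00532), where 2.25% of genes were called higher and 2.44% lower. With imiquimod 1 left out it did not pass (2.97, edgeR adjusted p = 0.0568), beside 0.0403% called higher and 0.0134% lower.

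**Figure D1:**
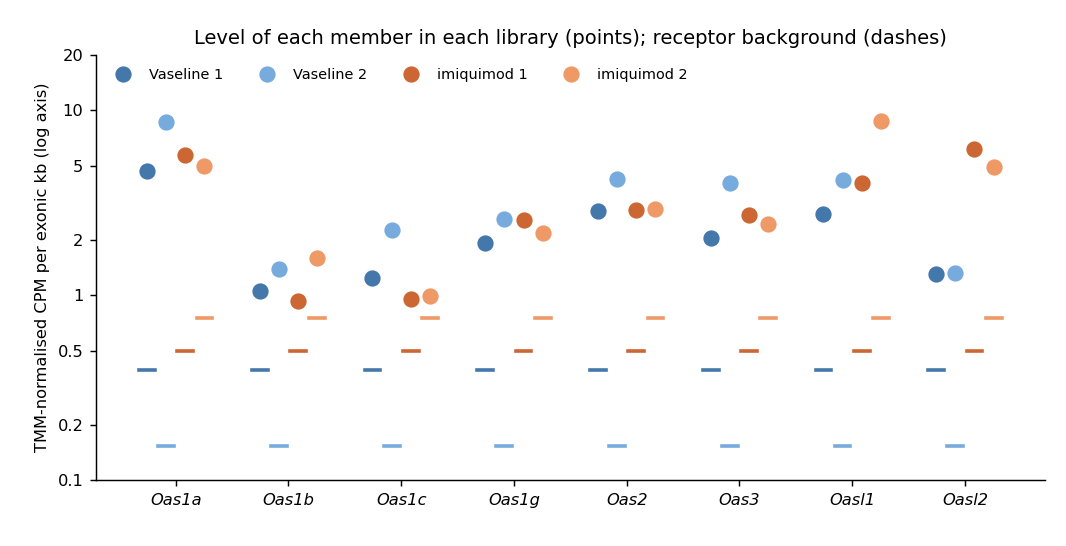
Level of each OAS family member per exonic kilobase in the 4 libraries (log axis, TMM-normalised CPM per kilobase), 1 point per library. Horizontal marks give the receptor background of each library, and Oasl2 is the member whose imiquimod points both lie above its Vaseline points, while Oas1c is the member with both below.

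Because background was highest in imiquimod 2, the Oasl2 level was also set against the background of its own library. It was 3.32 and 8.66 times background in Vaseline 1 and 2, and 12.3 and 6.55 times in imiquimod 1 and 2, so on this ratio the groups overlapped. With the background subtracted on the TMM scale, Oasl2 stood at 0.916 and 1.17 CPM per kilobase with Vaseline and at 5.67 and 4.205 with imiquimod, a log2 ratio of 2.24. With the background subtracted and the factors of genes above background in place of TMM, the levels were 0.895 and 0.801 and then 6.34 and 7.28, a log2 ratio of 3.004. The groups did not overlap in either case. Without subtraction the log2 fold change was 2.08 in the fit to all genes and 2.83 in the fit to genes above background. The larger ratio thus goes mainly with the factors and less with the subtraction.

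Oasl1 was higher mainly in a single imiquimod library. Its levels were 7.16 and 10.98 CPM with Vaseline and 10.5 and 22.8 CPM with imiquimod, and imiquimod 1 lay within the Vaseline range on the TMM scale. On library totals Oasl1 was at 6.83 and 6.56 counts per 1000000 with Vaseline and at 11.1 and 37.8 with imiquimod, which did not overlap. The log2 fold change was 0.90 (SE 0.59, edgeR adjusted p = 0.437), and 1.82 (SE 0.58, edgeR adjusted p = 0.468) among genes above background, where DESeq2 gave 1.79 with an adjusted p of 0.109. It was positive in all 20 combinations but passed in 0. Without imiquimod 2 it was 0.21 over all genes and 0.64 among genes above background, so that library carried most of the difference. Antisense Gm13822 covers 1.46% of the exonic bases of Oasl1, and no gene overlaps those of Oasl2.

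For the synthetases proper, whether the treatments were apart depended on the scaling. The Oas1 proteins hold a single OAS unit, and Oas1a and Oas1g are close copies. Oas1a was at 8.88 and 16.3 CPM with Vaseline and at 10.8 and 9.46 CPM with imiquimod. Oas1g was at 4.52 and 6.05 CPM with Vaseline and at 5.94 and 5.08 CPM with imiquimod. On this scale the groups overlapped for both genes, with log2 fold changes of −0.32 (SE 0.59, edgeR adjusted p = 0.760) and 0.04 (SE 0.63, edgeR adjusted p = 0.971). Of the 50-base words in Oas1a transcripts 57.6% also occur in another gene, chiefly Oas1g, and 45.7% of those in Oas1g are shared. How reads that match both were counted is not stated, so the division between these genes is uncertain. Their sum was 13.4 and 22.3 CPM with Vaseline and 16.7 and 14.5 CPM with imiquimod, again overlapping. The sum does not depend on this division, but it would change if shared reads were dropped or counted for both genes. With RLE factors the log2 fold changes were −0.63 for Oas1a and −0.24 for Oas1g. With the background subtracted on the TMM scale the log2 ratios were −0.43 and −0.20. On library totals and under the factors of genes above background the imiquimod libraries were higher for both genes. In the edgeR fit to genes above background the log2 fold changes were 0.52 for Oas1a and 0.85 for Oas1g, and with library totals 0.58 and 0.92, with 0 calls. On library totals the sum was 12.8 and 13.3 counts per 1000000 with Vaseline and 17.6 and 24.1 with imiquimod, and these groups were apart.

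Oas1b and Oas1c lie head to head on chromosome 5, with 120 bases between their annotated start sites. Oas1b is annotated as a polymorphic pseudogene with a coding sequence of 251 codons. It is the locus of resistance to flaviviruses in mice, and most laboratory strains carry an allele with an early stop codon. Oas1b was at 2.10 and 2.77 CPM with Vaseline and at 1.85 and 3.18 CPM with imiquimod, and its log2 fold change was 0.11 (SE 0.73, edgeR adjusted p = 0.939). At 2.66 and 9.11 times background with Vaseline and 1.86 and 2.11 times with imiquimod, it was the member that did not reach the bound for genes above background. Oas1c, whose product has little or no synthetase activity, was at 2.97 and 5.39 CPM with Vaseline and at 2.30 and 2.39 CPM with imiquimod.

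On the TMM scale, before background subtraction, Oas1c was the member with both imiquimod libraries below both Vaseline libraries. Its log2 fold change was −0.83 (SE 0.71, edgeR adjusted p = 0.518). The imiquimod levels were 1.91 and 1.31 times background, near the level of scattered reads, against 3.12 and 14.7 times with Vaseline. With the background subtracted the log2 ratio was −2.08 on the TMM scale and −1.29 under the factors of genes above background, while the edgeR fit to genes above background gave 0.03. The direction thus depended on how background and scaling were treated, and on library totals the groups overlapped. Antisense Gm43069 covers 9.44% of Oas1c exonic bases, and a strand setting for the counting is not stated.

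Oas2 and Oas3 are the synthetases built of several OAS units, encoded by 751 and 1138 codons. Oas2 was at 12.7 and 18.9 CPM with Vaseline and at 12.9 and 12.99 CPM with imiquimod. Oas3, the sensor of long double-stranded RNA, was at 14.5 and 28.5 CPM with Vaseline and at 19.1 and 17.2 CPM with imiquimod. In both genes the imiquimod values fell within the Vaseline range on this scale. The log2 fold changes were −0.29 (SE 0.59, edgeR adjusted p = 0.786) for Oas2 and −0.25 (SE 0.59, edgeR adjusted p = 0.818) for Oas3. Among genes above background they were 0.55 and 0.60, and with library totals 0.61 and 0.66. Under both of these scalings the imiquimod libraries of both genes lay above the Vaseline libraries. With RLE factors the log2 fold changes were −0.58 for Oas2 and −0.56 for Oas3. With the background subtracted on the TMM scale the log2 ratios were −0.52 and −0.51. Oas2 then stood at 2.45 and 4.09 CPM per kilobase with Vaseline and at 2.40 and 2.16 with imiquimod. These groups were apart in the lower direction, while those of Oas3 overlapped.

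Counted over the family, 4 of 8 members had a positive and 4 a negative log2 fold change over all genes, with a median of −0.10. Over all tested genes 60.6% were positive and the median was 0.41, but over the 14605 genes above background in this same fit 17.1% were positive and the median was −0.68. That class holds 7 of the members, so the family's median lies between those of all tested genes and of genes above background. The groups were apart for 1 member in the higher direction (30.5% of all tested genes) and for 1 in the lower (20.9%). Of the genes above background 5.56% were apart in the higher and 50.3% in the lower direction in that fit. Among genes above background all 7 members tested there were positive, where 55.7% of genes were, and their median was 0.60. Of these 7, 6 had groups apart in the higher direction, where 23.5% of genes did, and 0 in the lower, where 20.3% did. Entry to this set depended on level, so these 7 are not the whole family. Oas1c reached it through Vaseline 2 alone, the library with the lowest background. Such entry can favour genes high in Vaseline, so the shares of this set are no neutral reference. Apart from Oasl1 and Oasl2, the sign of every member's difference changed with the scaling, and a common direction of the family is not shown.

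**Figure D2:**
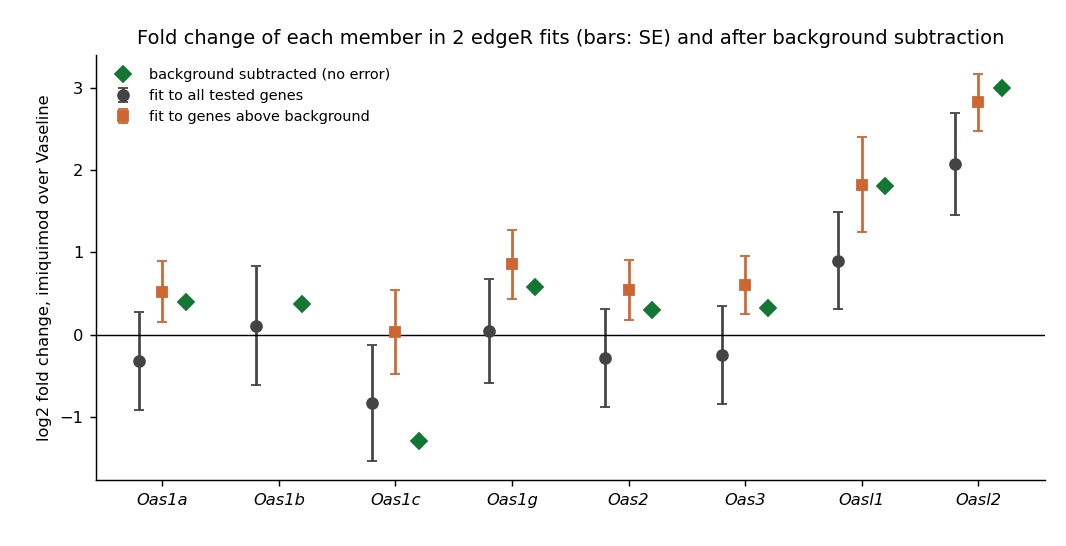
Log2 fold change (imiquimod over Vaseline) of each member in the edgeR fit to all genes and in the fit to genes above background, with bars of 1 SE, and, as diamonds, the log2 ratio after background subtraction under the factors of genes above background. Oasl2 lies highest under each of the 3, at 2.08, 2.83 and 3.004; Oas1b has no value in the fit to genes above background.

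The makeup of the family within each library needs no scaling between libraries. Oasl2 gave 13.7% (exact 95% binomial interval 12.3 to 15.1) and 8.67% (7.86 to 9.54) of all OAS family counts in Vaseline 1 and 2. In imiquimod 1 and 2 it gave 38.3% (35.9 to 40.7) and 30.2% (28.7 to 31.7). These intervals cover counting error only, because amplified reads that carry no molecular identifier do not count molecules. The share of Oasl2 was higher in both imiquimod libraries. The share of Oasl1 was 11.7% and 11.3% with Vaseline, but 10.3% in imiquimod 1 and 21.8% in imiquimod 2. For each count of Oas2 there were 0.659 and 0.447 counts of Oasl2 with Vaseline and 3.05 and 2.44 with imiquimod. Without Oasl1 and Oasl2 the summed family level was 45.6 and 77.8 CPM with Vaseline and 52.9 and 50.3 CPM with imiquimod, so on the TMM scale the other 6 members overlapped as a sum. On library totals the same sum was 43.5 and 46.5 with Vaseline and 55.6 and 83.3 with imiquimod, where the groups were apart, as they were under the factors of genes above background (44.6 and 53.3, 59.1 and 87.0).

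Per exonic kilobase the order of the members also differed between treatments. Oas1a was first in both Vaseline libraries, with 26.4% and 30.1% of the length-corrected family total, followed by Oas2, Oasl1, Oas3 and Oas1g. Oas2 (15.9% and 14.8%) and Oasl1 (15.4% and 14.7%) did not differ there beyond the spread between libraries. Oasl2 was in position 6 and position 8, with 7.34% and 4.62%. With imiquimod Oasl2 was first in library 1 (23.8%) and in position 3 in library 2 (17.2%), where Oasl1 was first (30.3%). Oas1a was in position 2 in both (22.1% and 17.4%), and its share overlapped that of Oasl2. The positions of Oas1a and Oas1g rest on how the reads that match both were counted, which is not stated.

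**Figure D3:**
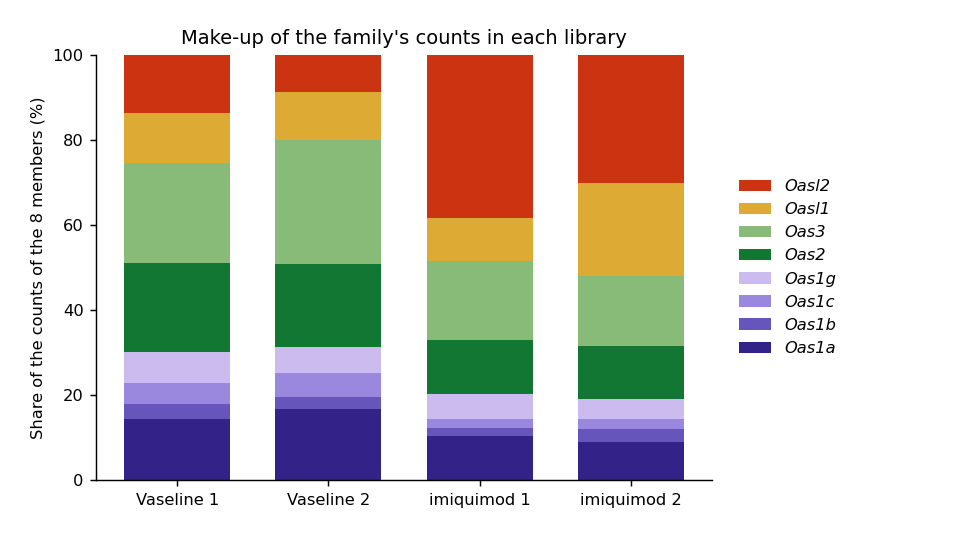
Share of the summed OAS family counts (percent) that each member takes in each of the 4 libraries, not corrected for gene length. Oasl2 takes 38.3% and 30.2% with imiquimod against 13.7% and 8.67% with Vaseline.

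The promoters show what sequence the members share. RefSeq windows of 250 bases before to 50 bases after the start (GRCm38.p6) were matched for 6 members, all but Oas1b and Oas2. The ISRE core searched, on both strands, was GAAA, any 2 bases and GAAA again, which 3.44% of 32851 promoters hold. It was found in 4 of the 6 windows, those of Oas1a, Oas1g, Oas1c and Oas3. The windows of Oasl1 and Oasl2 do not hold these letters. The core of the gamma-activated site TTCNNNGAA, whose letters read alike on both strands, was found in the Oas1a window alone, and 8.30% of promoters hold it. The 150 bases before the start are printed 5′ to 3′ on the gene's strand for the 4 genes with an ISRE core, in capitals, and for Oasl2, the member with the largest difference. They lie at chr5:120907526-120907675 (Oas1a), chr5:120887614-120887763 (Oas1g), chr5:120812515-120812664 (Oas1c) and chr5:120777660-120777809 (Oas3), all on the minus strand, and at chr5:114896784-114896933 (Oasl2) on the plus strand.
Oas1a: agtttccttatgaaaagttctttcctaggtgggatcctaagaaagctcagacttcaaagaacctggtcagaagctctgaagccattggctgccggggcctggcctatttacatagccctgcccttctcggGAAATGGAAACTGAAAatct
Oas1g: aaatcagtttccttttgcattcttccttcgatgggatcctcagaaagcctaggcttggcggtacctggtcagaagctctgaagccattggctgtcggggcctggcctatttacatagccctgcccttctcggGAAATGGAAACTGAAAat
Oas1c: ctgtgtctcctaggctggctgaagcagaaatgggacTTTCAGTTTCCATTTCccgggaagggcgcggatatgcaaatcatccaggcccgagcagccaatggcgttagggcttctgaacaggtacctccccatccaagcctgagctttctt
Oas3: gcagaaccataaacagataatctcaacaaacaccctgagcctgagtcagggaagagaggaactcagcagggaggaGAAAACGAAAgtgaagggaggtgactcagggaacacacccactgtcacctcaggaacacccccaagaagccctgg
Oasl2: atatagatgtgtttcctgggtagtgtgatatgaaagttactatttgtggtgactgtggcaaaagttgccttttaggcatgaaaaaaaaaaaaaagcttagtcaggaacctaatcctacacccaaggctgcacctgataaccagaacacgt
In Oas1a and Oas1g 2 overlapping ISRE cores form the stretch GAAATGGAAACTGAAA of 16 bases, directly before the start. These windows as a whole are 88.8% identical (261 of 294 aligned positions). The Oas1c window holds the same stretch on its other strand, 99 bases before the Oas1c start. Read from Oas1b, which is transcribed the opposite way, the stretch is on the sense strand and ends 7 bases before the annotated Oas1b start. The stretch occurs in 7 of 32851 promoter windows, belonging to 5 genes, and the others are Apol9a and Apol9b. The 4 members with an ISRE core had log2 fold changes between −0.83 and 0.04 over all genes and between 0.03 and 0.85 in the fit to genes above background. Oasl2, with none in this window, had the largest in both fits. A match describes letters only, and an ISRE may lie outside the window.

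The members lie in a pair of groups on chromosome 5 (GRCm38, GENCODE vM21). Oasl2 (114896936 to 114912234) and Oasl1 (114923240 to 114937915) are neighbours on the plus strand. The group of synthetases runs from Oas2 (120730333 to 120749853) over Oas3 (120753098 to 120777661), Oas1c (120800194 to 120812514) and Oas1b (120812635 to 120824163) to Oas1g (120876142 to 120887613) and Oas1a (120896256 to 120907521). All of these but Oas1b are on the minus strand. The members with positive values in all settings were thus the neighbouring pair Oasl1 and Oasl2.

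Of 4 further mouse Oas1 genes that are no members, 0 passed the edgeR test, where 1 had an unadjusted p under 0.05. That gene, Oas1f, was at 23.8 and 17.6 CPM with Vaseline and at 13.5 and 3.77 CPM with imiquimod. Its log2 fold change was −1.33 (SE 0.61, edgeR adjusted p = 0.338). On this scale Oas1f was at lower levels in both imiquimod libraries, while under the factors of genes above background its groups overlapped (−0.72). Oas1d, Oas1e and Oas1h were at no more than 2.80 times background in any library, with log2 fold changes of 0.20, 0.34 and 0.62 and edgeR adjusted p of 0.916, 0.820 and 0.736.

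Beside the synthetases, 6 genes of a list loosely drawn around the 2-5A pathway were measured. Of these 6 genes edgeR called 1 lower (0.137% of all tested genes) and 0 higher (0.0634%). Their median log2 fold change was −0.65, close to the −0.68 of genes above background in this fit, and it was −0.07 over the 5 of them in the fit to genes above background. Abce1, an ATP-binding protein of ribosome recycling, had −0.80, and Pde12 and Enpp1, phosphodiesterases that can degrade 2-5A, had −0.80 and 0.63. Akap7 and Dcp1a had −0.31 and −0.51, and edgeR adjusted p for these 5 genes lay between 0.481 and 0.771. Cnp, a cyclic nucleotide phosphodiesterase best known from myelin, fell from 22.6 and 62.9 CPM to 3.45 and 5.89 CPM. Its log2 fold change was −3.15 (SE 0.67, edgeR adjusted p = 0.00368). The edgeR call for Cnp was lost without Vaseline 2 (−2.29, adjusted p = 0.776), imiquimod 1 (−2.94, 0.280) or imiquimod 2 (−3.63, 1.00), where the difference itself kept its sign. It was also lost under RLE factors (adjusted p = 0.0891), library totals (0.298), no filter (0.496), the older form (0.344) and in the edgeR fit to genes above background (0.424). It held with DESeq2 in both gene sets, limma-voom, upper-quartile factors and the stricter filter.

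The type I interferon pathway was measured from ligands to target genes. Of 21 ligand, receptor and signalling genes, 8 had positive and 13 negative log2 fold changes, and the median was −0.44. Over all tested genes 60.6% were positive with a median of 0.41. Over genes above background in this same fit 17.1% were positive with a median of −0.68. With edgeR 0 of the 21 passed in either direction. Without adjustment 1 was higher and 1 lower at p under 0.05, beside 8.63% and 5.10% of all tested genes. In the fit to genes above background the median of the 14 tested was 0.02. Irf7 was at 9.76 and 11.1 CPM with Vaseline and at 43.1 and 25.3 CPM with imiquimod, a log2 fold change of 1.71 (SE 0.61, edgeR adjusted p = 0.232). Like Oasl2, Irf7 was higher in both imiquimod libraries, and among genes above background DESeq2 called it (2.39, adjusted p = 2.16e-07). Of the transcription factors downstream of the receptor, Stat2 had −0.61 and Irf9 0.63. Tlr7, the receptor for imiquimod, had −0.26, and Tyk2, Irf5 and Ifne had −1.30, −1.48 and 1.70. Of 12 nucleic acid sensors 5 were positive and 0 passed with edgeR, while 8 of the 10 above background were positive in their own fit (55.7% of genes). Over all genes the values were 1.48 for Ddx60, 1.22 for Zbp1, −0.86 for Sting1 and −0.83 for Cgas.

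The antiviral effectors are the class to which OAS genes belong. Of 22 effector genes 18 had positive log2 fold changes, 12 had groups apart in the higher direction, and the median was 0.86. Over all tested genes 60.6% were positive, 30.5% were apart in the higher direction and the median was 0.41. Over genes above background in this fit these values were 17.1%, 5.56% and −0.68. With edgeR 0 of the 22 passed, and at an unadjusted p under 0.05 the counts were 7 higher (8.63% of all tested genes) and 0 lower (5.10%). Ifit1, which binds viral RNA caps, had 2.16 (edgeR adjusted p = 0.121), Ifi27l2a 2.10 (0.153), the GTPase gene Mx1 1.78 (0.232) and Rsad2, which encodes viperin, 1.62 (0.256). DESeq2 called 0 of the 22 higher over all genes (0.0152% of genes), with 5 higher at an unadjusted p under 0.05, and 4 of the 14 above background (0.664%). Of 8 brakes on interferon signalling, 6 were negative with a median of −1.04. In this fit 39.4% of all tested genes and 82.9% of genes above background were negative. In the fit to genes above background the median was −0.26. Values over all genes were −2.29 for Ptpn6, −1.46 for Socs1 and −1.12 for Ptpn2. Trex1, a nuclease that clears cytosolic DNA, was called higher beside 0.0634% of all tested genes (3.68, SE 0.79, edgeR adjusted p = 0.00440), but all its exonic bases are shared with Atrip, so the counts of these genes cannot be told apart. The edgeR call for Trex1 was lost without Vaseline 2 (3.56, adjusted p = 0.128), imiquimod 1 (2.49, 0.318) or imiquimod 2 (4.41, 0.915), under library totals (adjusted p = 0.240), no filter (0.496), the older form (0.243) and in the edgeR fit to genes above background (0.312).

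Genes with the most similar pattern were sought among 14605 genes above background, by the root mean square (RMS) difference of centred log2 CPM over the 4 libraries. Nearest to the mean of the 7 members above background were Trmt44 (RMS 0.0216), Arhgap27os3, Gbp9, Dhx58, Leng9, Bcl2l15, Parp14 and Trbc2 (RMS 0.0955). Gbp9, Dhx58 and Parp14 are known interferon-induced genes. Trmt44 was at 11.3, 16.7, 16.0 and 16.3 CPM in Vaseline 1 and 2 and imiquimod 1 and 2, a profile low in Vaseline 1 and alike in the other libraries. That shape belongs to the TMM scale: on library totals the family sum was 58.3 and 58.1 counts per 1000000 with Vaseline and 108 and 173 with imiquimod. The measure compares genes within a library, so a change of scaling shifts all genes alike and the order of nearness hardly depends on it.

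The same search for Oasl2 alone, added after its values were seen, gave Ccl5 (RMS 0.1997), Il1a, Irf7, Cdsn, Clec4e, Ifit3, Rsad2 and Ifit1 (RMS 0.299). Ccl5 and Il1a encode a chemokine and an interleukin, Cdsn a protein of cornified keratinocytes, and Clec4e the receptor Mincle. Irf7, Ifit3, Rsad2 and Ifit1 are interferon-induced. Ccl5 was at 1.57 and 1.76 CPM with Vaseline and at 9.84 and 5.40 CPM with imiquimod. With 4 libraries in 2 groups, many genes can share such a pattern.

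**Figure D4:**
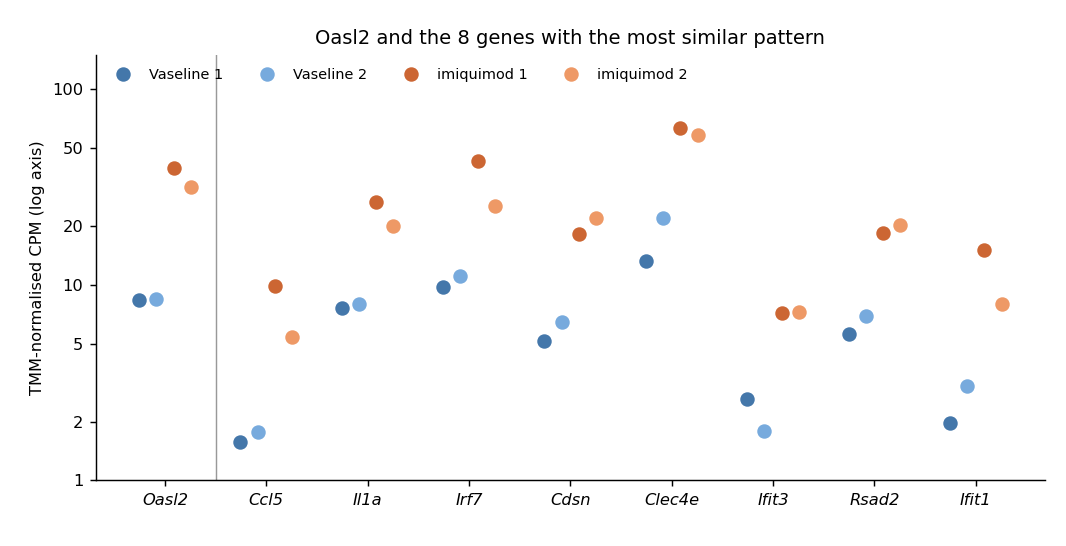
CPM (TMM-normalised, log axis) of Oasl2 and of the 8 genes nearest to it by centred log2 CPM, 1 point per library. In all 9 genes both imiquimod points lie above both Vaseline points.

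Markers of other cells were summed beside Oasl2. The summed level of 12 neutrophil markers was 26.7 and 58.2 CPM with Vaseline and 76.3 and 274 CPM with imiquimod. Of this, S100a8 and S100a9 gave 1.55 and 40.2 CPM with Vaseline and 55.3 and 200 CPM with imiquimod. The other 10 summed to 25.1 and 18.1 and to 21.0 and 73.8 CPM, so without these genes imiquimod 1 lay within the Vaseline range. Of the 11 tested, 8 had groups apart in the higher direction (30.5% of all tested genes), 2 were called higher (0.0634%) and Mpo was apart in the lower direction, while Camp, Elane and Stfa2l1 were at 0 in imiquimod 1. Activated keratinocyte markers summed to 356 and 773 CPM with Vaseline and to 1464 and 457 CPM with imiquimod, so their groups overlapped, and Defb4 was at 0 in all libraries. Of the 9 tested, 9 were positive (60.6% of all tested genes) and 3 were apart in the higher direction, near the background of 30.5%. In the fit to genes above background, 8 of the 8 tested were positive (55.7% of genes). There 7 were apart in the higher direction (23.5%) and 0 in the lower (20.3%). Of these 8, edgeR called 0 and DESeq2 called 4 higher (0.664% of genes). Plasmacytoid dendritic cell markers, of a cell type known for high interferon output, summed to 249 and 225 CPM and to 338 and 132 CPM. In each direction 3 of these 10 were apart, beside 30.5% of all tested genes higher and 20.9% lower. Of these, Siglech was at 2.57 and 2.99 CPM with Vaseline and at 3.26 and 4.06 CPM with imiquimod, and Cox6a2 was at 0 in imiquimod 1.

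The sums of the other marker lists overlapped or were lower. Markers of monocytes summed to 105 and 133 CPM with Vaseline and to 57.1 and 121 CPM with imiquimod. Fn1 and F13a1 gave most of this and were lower with imiquimod. The other 8 summed to 30.4 and 23.3 CPM with Vaseline and to 33.2 and 56.7 CPM with imiquimod, which did not overlap. Of the 10 monocyte markers, 8 were positive, beside 60.6% of all tested genes. The groups were apart in the higher direction for 5 (Ly6c2, Vcan, Ms4a4c, Ly6i and Cx3cr1), beside 30.5% of all tested genes. They were apart in the lower direction for 2, beside 20.9%. Of the 3 markers in the fit to genes above background, 1 was positive. T cell markers summed to 286 and 322 and to 164 and 140 CPM, with Il17a at 0 in imiquimod 1. Markers of keratinocytes at rest summed to 21774 and 24756 CPM and to 20995 and 5654 CPM. Those of fibroblasts and endothelium summed to 59.2 and 156 and to 49.9 and 94.8 CPM, and those of melanocytes to between 36.4 and 42.4 CPM in all libraries. Langerhans cell markers summed to 23336 and 61541 CPM with Vaseline and to 8593 and 7097 CPM with imiquimod. The mitochondrial genome gave 7.23% and 7.92% of counts with Vaseline and 5.49% and 5.14% with imiquimod. Oasl2 was thus higher in the libraries with lower Langerhans cell marker sums. Neutrophil markers other than S100a8 and S100a9 were higher as a sum in imiquimod 2 alone. Monocyte markers other than Fn1 and F13a1 were higher as a sum in both imiquimod libraries. The part of other cells in the Oasl2 level was not tested.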

How the data were processed

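The deposited table holds counts per Ensembl gene, integers that were not scaled; blank or summary entries were not present. The tools Trimmomatic, HISAT2, SAMtools and StringTie and the build GRCm38 are named per the submitters' processing notes; versions, annotation release, strand setting and treatment of multi-mapped reads are not given in the sources used here. Per the labels' protocols, 10 to 70 ng of total RNA entered a low-input stranded kit. Totals ranged over 5.10-fold, which limits precision in the imiquimod libraries.

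The 2 groups were compared with the edgeR 4.0.16 quasi-likelihood test (R 4.3.3, newer form, TMM factors, two-sided) after filterByExpr (minimum count 10, minimum total 15), with Benjamini-Hochberg adjustment over all 39439 genes and a threshold of 0.05. SE is the fold change over the root of the F statistic. Of 55487 genes, 55227 matched GENCODE vM21, which gave exon lengths. DESeq2 1.42.0, limma-voom (limma 3.58.1), other factors and filters, a replicate block and leaving out each library were alternatives; the older form, background subtraction, sums under other scalings and further leave-outs were added after seeing the data. The edgeR fit was tested on simulated data. Over all genes it called 0 of 67 genes changed 2-fold, 1 of 65 changed 4-fold and 4 of 68 changed 8-fold. Among genes above background it called 1 of 64, 26 of 70 and 55 of 66. The simulated counts held no difference in background between libraries, and in the data edgeR called 0 genes above background in either direction. These shares therefore need not hold for the data. A gene that did not pass in either fit is not shown to be unchanged.

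The members and gene lists were chosen with earlier results of these data known. Named were all members, all reported genes of the other Oas1 and 2-5A lists, up to 4 genes of smallest p per pathway list with Irf7, Irf9, Stat2 and Tlr7, and the 8 genes nearest to the family mean. Some genes of the lists and of this rule are not reported here and were left out of the list counts. Mb21d1 and Tmem173 are older symbols of Cgas and Sting1, and Il36a was not found. Background was subtracted per exonic kilobase. Promoters are from RefSeq. Python 3.11.15, numpy 2.4.6, pandas 2.3.3, scipy 1.17.1 and matplotlib 3.10.9 were used.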

Additional observations from a re-analysis of the deposited data

How the results depend on the processing

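Calls and the direction of low genes depended on scaling and on the genes fitted. Genes higher and lower numbered 25 and 54 with edgeR. They numbered 41 and 56 with upper-quartile factors, 17 and 14 with RLE factors, 8 and 5 with library totals, 6 and 667 with DESeq2, 41 and 136 with limma-voom, 27 and 124 with the stricter filter, 0 and 0 with no filter, 0 and 0 among genes above background with edgeR, 97 and 156 there with DESeq2, and 3 and 5 with the older form. Leaving out a library gave 8 to 2959 higher (2959 without Vaseline 1) and 0 to 317 lower. Members called higher numbered 1 (Oasl2) with DESeq2 in both gene sets, limma-voom, upper-quartile factors, library totals and the stricter filter, and 0 when any library was left out of the fit to all genes; members called lower numbered 0 in every setting. Members with a positive sign, 4 in the edgeR fit, numbered 2 with DESeq2 and with RLE factors, 7 with upper-quartile factors and among genes above background with edgeR, 8 with library totals, and 2 to 7 when a library was left out. The cause of these changes was not tested. Same-numbered libraries did not deviate together (correlation −0.33 over all genes and −0.13 among genes above background). With 2 libraries per group this cannot settle whether the numbers pair samples, because any difference between single libraries enters it. The replicate block gave 1 gene higher and 0 lower and the crossed replicate block 0 and 0, with 0 members called. With the replicate block Oasl2 was 2.07 (edgeR adjusted p = 0.705). With DESeq2 the log2 fold change changed sign for Oas1b (−0.25), Oas1g (−0.22), Oas1d (−0.077) and Oas1e (−0.0098). With RLE factors the log2 fold change changed sign for Oas1b (−0.17), Oas1g (−0.24) and Oas1d (−0.052). Among genes above background with DESeq2 the log2 fold change changed sign for Oas1a (0.49), Oas2 (0.51), Oas3 (0.57), Akap7 (0.41), Dcp1a (0.22) and Stat2 (0.18). Among genes above background with edgeR the log2 fold change changed sign for Oas1a (0.52), Oas1c (0.034), Oas2 (0.55), Oas3 (0.60), Akap7 (0.44), Dcp1a (0.25), Sting1 (0.0090) and Stat2 (0.21). With library totals the log2 fold change changed sign for Oas1a (0.58), Oas1c (0.11), Oas2 (0.61), Oas3 (0.66), Akap7 (0.49), Dcp1a (0.30), Sting1 (0.092), Cgas (0.020), Stat2 (0.27) and Tlr7 (0.63). With no filter the log2 fold change changed sign for Oas1g (−0.048). With upper-quartile factors the log2 fold change changed sign for Oas1a (0.053), Oas2 (0.082), Oas3 (0.13), Akap7 (0.024) and Tlr7 (0.087). With 1 library left out, log2 fold changes ranged from −0.44 to 1.24 for Irf9, −0.80 to 0.16 for Oas1a, −0.40 to 0.30 for Oas1b, −0.27 to 0.59 for Oas1d, −0.60 to 0.88 for Oas1e, −0.26 to 0.25 for Oas1g, −0.49 to 7.48 for Oas1h, −0.66 to 0.0011 for Oas2 and −0.77 to 0.30 for Oas3. Vaseline 2 holds 0 counts of Oas1h, so its upper value is no bound. The lone library of a group is then assumed to vary like the other group. Low totals and high background limit what could be seen for Oas1b, Oas1c, Oas1d, Oas1e and Oas1h.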

Other observations

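Apol9a and Apol9b, the genes outside the Oas1 group whose promoter windows hold the stretch shared by Oas1a, Oas1g and Oas1c, were chosen for their sequence and looked up after the members' values were seen. Apol9a was at 4.97 and 3.08 CPM with Vaseline and at 7.99 and 11.2 CPM with imiquimod, a log2 fold change of 1.28 (SE 0.62, edgeR adjusted p = 0.349), and its groups did not overlap. Apol9b was at 2.70 and 0.616 CPM with Vaseline and at 4.86 and 2.22 CPM with imiquimod, with overlapping groups and a log2 fold change of 1.03 (SE 0.75, edgeR adjusted p = 0.467). Over the 4 libraries these levels were 1.61 to 5.32 times background, and neither difference passed the test.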
